A study of Mus musculus with 4 samples.

Results

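Transcript levels of 10 heat shock chaperone genes of the cytosol and the endoplasmic reticulum (ER) were described in CD4+CD8+ double-positive (DP) thymocytes that had been sorted from mouse thymus. The genes were picked by name (Hspa8, Hspa1a, Hspa1b, Hsph1, Dnajb1, Dnaja1, Hsp90aa1, Hsp90ab1, Hspa5 and Hsp90b1) out of 43430 genes in the count table. All 10 had counts, 9 of them had enough for the test over 13281 genes, and 8 are listed in the authors' deposited table of 11536 genes. The 2 knockout (KO) mice had the genotype Uqcrfs1fl/fl; CD4-Cre+. Uqcrfs1 codes for the Rieske subunit of mitochondrial complex III, and the Cd4 promoter that drives Cre is active from about the DP stage of thymocyte development. The 2 control mice carry the label WT, although the series text describes littermates that were heterozygous, and WT serves below as a group name. The sources do not say whether the controls carried CD4-Cre, nor how old the mice were. All 4 mice were C57BL/6, with 1 library from each.

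Hsp70 proteins bind exposed hydrophobic stretches of unfolded proteins in cycles of ATP hydrolysis, J proteins (Hsp40) deliver the substrate and stimulate the ATPase, and Hsp110 proteins exchange the nucleotide. Hsp90 acts later, on near-native clients such as kinases and steroid receptors. In the cytosol, heat shock factor 1 (HSF1) induces the stress-inducible members when unfolded proteins accumulate, whereas the ER members Hspa5 and Hsp90b1 are induced by the unfolded protein response. The proximal T cell receptor kinase Lck is a known Hsp90 client.

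Counts assigned to genes came to 34080516 and 31728511 in KO replicates 1 and 2 and to 32846323 and 30408863 in WT replicates 1 and 2. Uqcrfs1 fell to 15.6 and 18.6 CPM (counts relative to the library total after TMM scaling) in the KO libraries, against 61.4 and 57.2 CPM in the WT libraries, a log2 change of -1.79 (SE 0.09, adjusted p = 1.78e-04 in edgeR's quasi-likelihood test). The defining DP genes were abundant in every library: Cd4 averaged 2078 ± 12.7 CPM in KO and 2013 ± 112 CPM in WT, Cd8a 2978 ± 34.3 CPM in KO and 3199 ± 36.5 CPM in WT, and Rag1 6507 ± 125 CPM in KO and 5972 ± 700 CPM in WT (SD, n = 2 each). Of the 11 tested DP markers, 1 (Cd8a) was lower and 0 were higher in KO at an unadjusted p under 0.05. The shares over all genes were 4.01% lower and 4.4% higher. Markers of other cell types differed between libraries. The 13 myeloid markers summed to 17.5 and 31.2 CPM in KO replicates 1 and 2 and to 18.6 and 17.7 CPM in the WT libraries, with Lyz2 at 0.499 and 5.36 CPM in KO and at 0.487 and 0.231 CPM in WT. The 10 markers of the preceding double-negative (DN) stage summed to 426 and 489 CPM in KO and to 370 and 388 CPM in WT. At an unadjusted p under 0.05, 4 of 8 tested genes were higher and 0 lower, against 4.4% higher and 4.01% lower of all genes. Of these, Dtx1 had 18.4 and 25.3 CPM in KO, against 10.97 and 11.2 CPM in WT. The 10 mature T cell markers summed to 293 and 321 CPM in KO and to 286 and 282 CPM in WT, with Zbtb7b, singled out after its values were seen, at 1.41 and 6.90 CPM in KO and at 2.25 and 2.07 CPM in WT. KO replicate 2 was the highest library for all 3 lists. No pair of libraries agreed within sampling noise. A chi-square of their counts, over its degrees of freedom, gave 4.82 for the KO pair and 9.005 for the WT pair. Against WT replicate 1, KO replicates 1 and 2 gave 10.1 and 12.1. Against WT replicate 2 they gave 5.46 and 7.74.

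The stretch of 250 bases before the start site was read for the 7 members that RefSeq's promoter table holds (GRCm38.p6). Hspa8, Hsp90aa1 and Hsp90ab1 are not among them. The sequences below are shown because heat shock and ER stress are known to induce the members through different promoter elements. Capitals mark matches to an HSF1 half-site pair (GAANNTTC or TTCNNGAA) or to the ER stress element (CCAAT, then 9 bases of any kind, then CCACG), searched on both strands.
Hspa1a promoter, chr17:34972157-34972406, minus strand: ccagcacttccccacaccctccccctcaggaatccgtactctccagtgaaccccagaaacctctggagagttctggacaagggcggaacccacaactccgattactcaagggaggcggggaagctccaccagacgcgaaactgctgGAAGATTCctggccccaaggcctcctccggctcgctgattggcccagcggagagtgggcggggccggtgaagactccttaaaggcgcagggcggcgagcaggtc
Hspa1b promoter, chr17:34959239-34959488, minus strand: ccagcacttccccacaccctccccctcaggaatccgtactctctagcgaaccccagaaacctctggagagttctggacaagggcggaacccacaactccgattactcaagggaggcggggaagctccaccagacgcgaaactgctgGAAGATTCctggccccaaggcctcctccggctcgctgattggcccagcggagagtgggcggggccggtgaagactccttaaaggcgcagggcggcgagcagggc
Hsph1 promoter, chr5:149636337-149636586, minus strand: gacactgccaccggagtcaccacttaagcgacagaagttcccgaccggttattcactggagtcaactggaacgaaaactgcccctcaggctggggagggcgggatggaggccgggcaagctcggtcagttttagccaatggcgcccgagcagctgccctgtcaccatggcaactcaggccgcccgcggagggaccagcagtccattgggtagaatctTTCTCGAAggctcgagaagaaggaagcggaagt
Dnaja1 promoter, chr4:40722218-40722467, plus strand: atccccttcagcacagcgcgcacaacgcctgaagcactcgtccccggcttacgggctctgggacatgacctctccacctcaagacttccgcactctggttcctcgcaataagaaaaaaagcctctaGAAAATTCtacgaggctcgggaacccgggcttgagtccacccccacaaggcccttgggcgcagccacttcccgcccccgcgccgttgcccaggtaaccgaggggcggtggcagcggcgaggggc
Hspa5 promoter, chr2:34771840-34772089, plus strand: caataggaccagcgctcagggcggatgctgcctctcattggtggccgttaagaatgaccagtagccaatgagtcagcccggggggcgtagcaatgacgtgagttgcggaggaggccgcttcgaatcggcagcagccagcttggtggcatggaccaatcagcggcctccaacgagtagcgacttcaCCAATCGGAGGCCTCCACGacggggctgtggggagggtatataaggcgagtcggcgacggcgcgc
Hsp90b1 promoter, chr10:86705445-86705694, minus strand: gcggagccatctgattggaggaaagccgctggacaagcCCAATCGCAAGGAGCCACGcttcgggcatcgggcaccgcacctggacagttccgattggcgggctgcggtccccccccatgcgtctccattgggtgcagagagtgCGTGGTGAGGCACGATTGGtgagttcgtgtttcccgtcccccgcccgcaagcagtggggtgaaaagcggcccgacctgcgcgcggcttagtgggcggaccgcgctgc

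A pair of HSF1 half-sites occurred in the windows of Hspa1a, Hspa1b, Hsph1 and Dnaja1, and no window held the ER element as well. The stricter element of 3 alternating units, present in 0.466% of all windows, was in 0 windows of the members. Over all 32851 windows of the same length in the table, 6.69% held GAANNTTC and 7.17% held TTCNNGAA, so that either form was present in 12.8%. The ER element was present in 0.113% of the windows, 1 match in Hspa5 and 2 matches, on opposite strands, in Hsp90b1. Neither motif was in either of the 2 Dnajb1 windows. For Hsph1 and Dnaja1, which have more than 1 start site in the table, the first is printed; the other 2 Dnaja1 windows held neither motif. The windows of Hspa1a and Hspa1b, both on chromosome 17, were identical at 247 of 250 positions, and the genes themselves share much of their sequence. Of the distinct 50-base stretches of the Hspa1a transcript, 60.3% also occurred in transcripts of other genes, and 62.3% did for Hspa1b. A match is a description of the letters and shows no binding.

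Levels per exon length spanned a wide range among the 10 genes. Per kilobase of merged exons (RPKM), Hsp90ab1, the constitutive cytosolic Hsp90, stood at the top with a mean of 378 over the 4 libraries (350 to 410), and at or above 99.5% of the tested genes. Hspa8, the constitutive Hsp70, followed at 159 RPKM (144 to 183), and the ER Hsp90 gene Hsp90b1, also called Grp94, at 81.2 RPKM (78.1 to 84.2). Next came Hsp90aa1, the inducible cytosolic Hsp90, at 51.4 RPKM (48.0 to 55.4), the J protein gene Dnajb1 at 46.5 RPKM (46.1 to 47.2) and the ER Hsp70 gene Hspa5, also called BiP, at 44.0 RPKM (42.9 to 45.4). The J protein gene Dnaja1 had 14.5 RPKM (13.8 to 15.3) and the Hsp110 gene Hsph1 10.8 RPKM (9.84 to 12.9). Merged exons take in every annotated transcript. They cover 8629 bases for Dnaja1 and 7266 bases for Hsph1, against at most 4301 bases (Hspa8) among the other members. Were shorter transcripts prevalent, the RPKM of Dnaja1 and Hsph1 would be higher. Which transcripts were present was not tested. With these lengths, no neighbours from Hsp90ab1 down to Hsph1 had overlapping ranges over the 4 libraries. The place of Dnajb1 also depends on the gene model. The files give it other ends and a length of 2263 bases, against 3204 merged exon bases. At 2263 bases, a length tried after seeing the data, its mean is 65.9 RPKM (65.2 to 66.9), above Hsp90aa1. Hspa8 also ends elsewhere in the files, where it spans 4217 bases. At that length, the most its exons can cover there, its mean is 162 RPKM. A shorter exon length would give a higher value and was not tried, so this length cannot show whether its place would hold. The RPKM of genes that share much sequence with others, Hsp90aa1 and Hspa8 among them, is a lower limit, since reads with more than 1 alignment are not counted. Hspa1b and Hspa1a lay far below, at 0.124 RPKM (0.0435 to 0.247) and 0.0909 RPKM (0.0513 to 0.200), and their ranges overlapped.

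**Figure D1:**
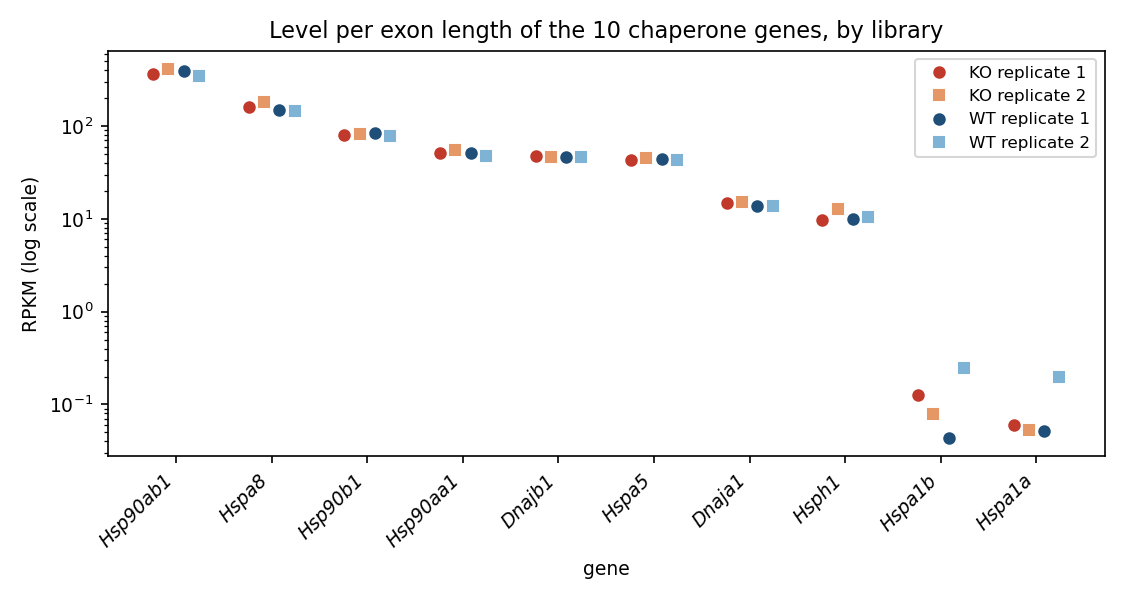
RPKM of each gene (log axis) in the 2 KO and 2 WT libraries, per kilobase of merged GENCODE exons and ordered by mean level. Hsp90ab1 lies between 350 and 410 RPKM in all libraries, while Hspa1b reaches at most 0.247 RPKM and Hspa1a 0.200 RPKM.

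Across the members, differences between KO and WT were small, and Hspa8 had the highest log2 change. In edgeR's quasi-likelihood test 0 of the 9 tested members passed an adjusted p under 0.05, where 0.0226% of all 13281 genes passed (0.00753% higher and 0.0151% lower). At an unadjusted p under 0.05, 2 members (Hspa8 and Dnaja1) were higher and 0 were lower in KO, against 4.4% higher and 4.01% lower of all genes, or 8.4% in either direction. The log2 change was above 0 for 7 of the 9, against 49.9% of all genes. The median log2 change was 0.07 over the 9 tested members and 0.00 over all genes tested, whose interquartile range ran from -0.08 to 0.09. Both KO libraries were above both WT libraries for 4 members (Hspa8, Dnajb1, Dnaja1 and Hsp90aa1), against 20.4% of all genes, and both were below for 0 members, against 20.1% (40.5% of all genes in either direction). KO replicate 2 was the highest of the 4 libraries for 6 of the 9, against 24.6% of all genes. With 2 mice against 2, an exact permutation test of a single gene cannot give a two-sided p below 0.333.

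**Figure D2:**
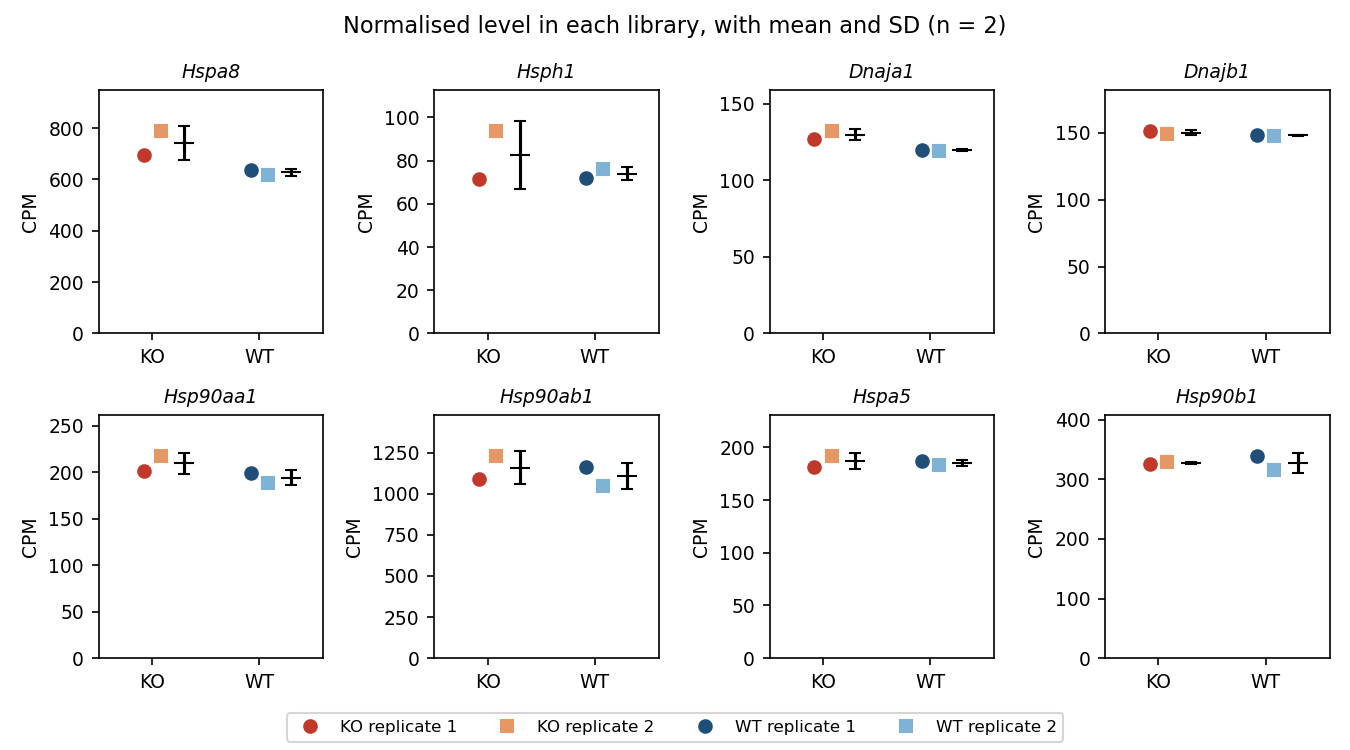
CPM of 8 members in each library (points), with the mean and SD of each group (n = 2) beside them; all axes start at 0. KO replicate 2 is the highest library for Hspa8, Hsph1, Dnaja1, Hsp90aa1, Hsp90ab1 and Hspa5.

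Hspa8, which handles folding of newly made proteins and uncoats clathrin vesicles, lies on chromosome 9 (chr9:40800984-40805200 in the files, plus strand; coordinates of genes are on the mm10 build). It stood at 695 and 789 CPM in KO replicates 1 and 2, against 637 and 619 CPM in WT replicates 1 and 2. Both KO libraries were therefore above both WT libraries, with KO replicate 2 the highest. Group means were 742 ± 66.3 CPM in KO and 628 ± 12.7 CPM in WT (SD, n = 2 each), a ratio of 1.18. The log2 change was 0.24 (SE 0.06, 95% interval 0.10 to 0.38), the adjusted p was 0.449 in edgeR's quasi-likelihood test, and the gene ranked 124 of 13281 by p. KO replicate 2 exceeded KO replicate 1 by 0.18 on the log2 scale. The log2 change was 0.15 without KO replicate 2 and 0.33 without KO replicate 1. When no filter on low counts was used, Hspa8 passed the threshold (adjusted p = 0.00151), as 1 of 114 higher genes among 20968 (0.544%); adjusted p over all alternatives ran from 0.00151 to 0.9998, its highest value without KO replicate 2. In the authors' deposited table its log2 change is 0.24 with an adjusted p of 0.0557, and it carries no mark as higher or lower. The summed myeloid, DN and mature T cell markers were also highest in KO replicate 2, and their part in the Hspa8 difference was not tested. In bulk RNA, a change in the mix of cells and a change in RNA per cell cannot be told apart.

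Of its 50-base transcript stretches, 38.6% also occurred in other genes, chiefly in Gm15459 (34.6%). Reads with more than 1 alignment were tallied apart and not assigned to a gene. Gm15459 itself had 283 and 273 counts in the KO libraries and 263 and 230 in the WT libraries, against 18794 to 25026 for Hspa8. The snoRNA genes Snord14c, Snord14d and Snord14e had 0 counts. They share 86 to 90 exon bases with Hspa8 on the same strand, and HTSeq can leave reads there unassigned as ambiguous. The 0 counts therefore do not show that these stretches lacked reads.

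Hspa1a and Hspa1b, the stress-inducible Hsp70 genes whose sequences are printed above, were nearly silent in all 4 mice. Hspa1a had 6 and 5 counts in the KO libraries, against 5 and 18 in the WT libraries. Hspa1b had 12 and 7 counts in KO, against 4 and 21 in WT. The highest value of each gene lay in WT replicate 2, and the groups overlapped. Hspa1a did not pass the filter on low counts. Hspa1b had a log2 change of -0.40 (SE 0.64, 95% interval -1.87 to 1.06, adjusted p = 0.883), with 0.93 when WT replicate 2 was left out and -1.11 when WT replicate 1 was. Summed as 1 feature, a choice made after seeing the data, the pair had 18 and 12 counts in KO and 9 and 39 in WT (log2 change -0.69, SE 0.60, adjusted p = 0.772). Reads that align to both genes are not counted, so these counts are a lower limit for the pair. Their loci are chr17:34969190-34972156 and chr17:34956436-34959238, both on the minus strand, and each has 1 exon.

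Hsph1, the Hsp110 exchange factor of cytosolic Hsp70 (chr5:149614287-149636376, minus strand), had 71.5 and 93.7 CPM in KO replicates 1 and 2, against 72.0 and 76.1 CPM in the WT libraries. KO replicate 2 alone stood above the other 3 libraries, and KO replicate 1 was the lowest of all. The log2 change was 0.16 (SE 0.12, 95% interval -0.14 to 0.45, adjusted p = 0.743), and -0.05 without KO replicate 2. KO replicate 2 exceeded KO replicate 1 by 0.39 on the log2 scale, more than the group difference. None of its 50-base stretches occurred in another gene.

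Both J protein genes had KO libraries above the WT libraries, by small amounts. Dnaja1, a farnesylated co-chaperone of Hspa8 (chr4:40722150-40737149, plus strand), had 127 and 132 CPM in KO, against 120 and 119 CPM in WT, with no overlap. Its log2 change was 0.12 (SE 0.05, 95% interval 0.00 to 0.23, adjusted p = 0.579), and ran from 0.09 to 0.14 over the fits with 1 library omitted. Dnaja1 shares 608 exon bases with Smu1 on the opposite strand (counts of 4526 and 4171 in KO and 4512 and 3848 in WT). Whether the counting used strand is not stated, and reads from that stretch may belong to either gene. Dnajb1, the J protein that HSF1 induces together with Hspa1a and Hspa1b (chr8:83608175-83611902 in the files, plus strand), had 151 and 149 CPM in KO, against 148 CPM in each WT library. The groups did not overlap, yet the log2 change was 0.02 (SE 0.05, 95% interval -0.09 to 0.13, adjusted p = 0.917).

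The cytosolic Hsp90 genes had intervals that included 0. Hsp90aa1 (chr12:110690605-110702728, minus strand) had 201 and 218 CPM in KO, against 200 and 189 CPM in WT. The KO libraries were above the WT libraries, KO replicate 1 only slightly. The log2 change was 0.11 (SE 0.06, 95% interval -0.02 to 0.24, adjusted p = 0.634), and 0.05 to 0.16 over the fits with 1 library omitted. Hsp90aa1 shares 47.5% of its 50-base stretches with other genes, mainly the copy Gm12346, which had 29 and 18 counts in KO and 18 and 11 in WT. Hsp90ab1 (chr17:45567775-45573271, minus strand) had 1088 and 1231 CPM in KO, against 1164 and 1050 CPM in WT. Its groups overlapped, and the spread within each group exceeded the difference between them. The log2 change was 0.07 (SE 0.07, 95% interval -0.09 to 0.23, adjusted p = 0.812), which turned to -0.03 with KO replicate 2 omitted and to -0.01 with WT replicate 2 omitted.

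The ER members were near 0 on the log2 scale. Hspa5, the lumenal Hsp70 that also restrains the sensors of the unfolded protein response (chr2:34771970-34777547, plus strand), had 181 and 192 CPM in KO, against 187 and 183 CPM in WT. The KO libraries enclosed the WT libraries, and the log2 change was 0.01 (SE 0.05, 95% interval -0.10 to 0.13, adjusted p = 0.960). Hsp90b1, the lumenal Hsp90 that folds integrins and Toll-like receptors (chr10:86690209-86705509, minus strand), had 326 and 328 CPM in KO, against 339 and 315 CPM in WT. Here the WT libraries enclosed the KO libraries. Its log2 change was -0.0004 (SE 0.05, 95% interval -0.12 to 0.12, adjusted p = 0.9997). Hsp90b1 shares 415 exon bases with 1810014B01Rik on the opposite strand, which had 228 and 201 counts in KO and 182 and 159 in WT, against 9566 to 11142 for Hsp90b1. Both ER intervals lay within 0.13 of 0.

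**Figure D3:**
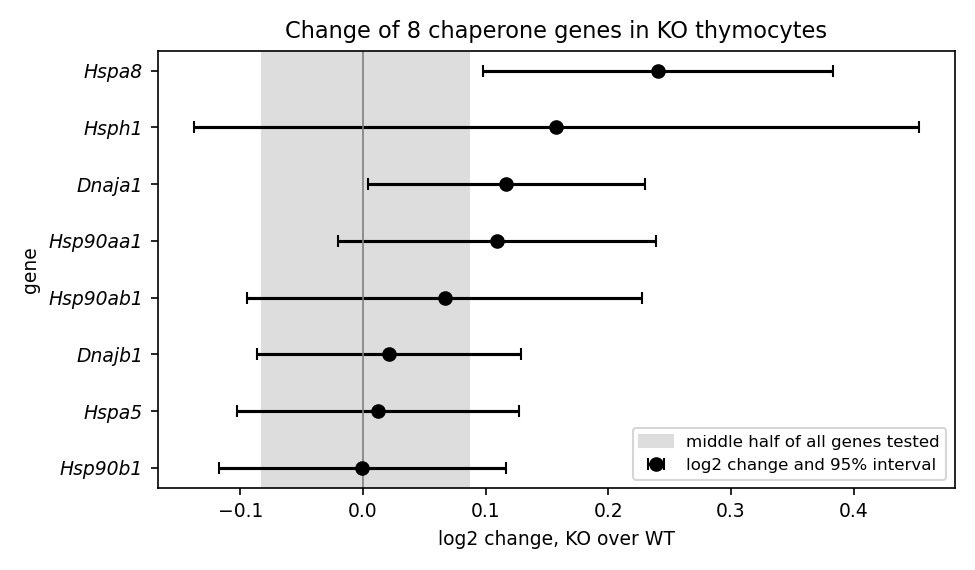
Log2 change (KO over WT) of 8 members with a 95% interval calculated back from the quasi-likelihood F. The grey band is the interquartile range of all 13281 genes tested, -0.08 to 0.09. The intervals of Hspa8 and Dnaja1 lie above 0 and the other 6 include it.

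Summed over the 8 cytosolic members, counts came to 2335 and 2613 CPM in KO replicates 1 and 2 and to 2341 and 2202 CPM in the WT libraries. Only KO replicate 2 stood above both WT libraries. The 2 ER members summed to 508 and 520 CPM in KO and to 526 and 498 CPM in WT, with overlap. Hsp90ab1 and Hspa8 make up most of the cytosolic sum.

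**Figure D4:**
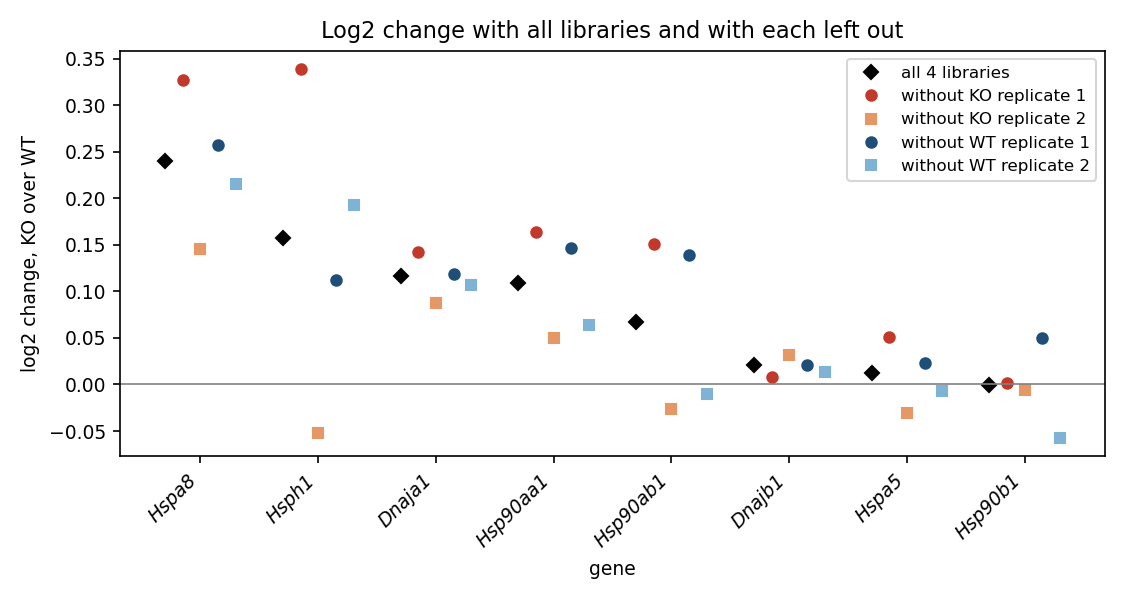
Log2 change (KO over WT) of 8 members with all 4 libraries and with each library left out. Hspa8, Dnaja1, Hsp90aa1 and Dnajb1 stay above 0, while Hsph1, Hsp90ab1 and Hspa5 lie below 0 without KO replicate 2, the last 2 of them also without WT replicate 2.

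The other genes of the chaperone network were read from 10 lists, chosen with earlier results on these data known. Of 122 listed genes in the table, 112 were tested and 0 passed an adjusted p under 0.05. At an unadjusted p under 0.05, 1 was higher (0.893%) and 8 were lower (7.14%), against 4.4% and 4.01% of all genes, and the median log2 change was -0.01. Without KO replicate 2 there were 0 lower, and without WT replicate 2 there were 17.

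The gene of HSF1 had overlapping groups. Hsf1 had 79.1 and 83.5 CPM in KO, against 81.1 and 81.8 CPM in WT, and Hsf2 had a log2 change of 0.01 (SE 0.09). Hsbp1, a small protein that binds HSF1 and restrains it, had 59.0 and 58.8 CPM in KO, against 64.5 and 66.4 CPM in WT (log2 change -0.15, SE 0.05, adjusted p = 0.547). Hsf4 had 22 and 27 counts in KO, against 30 and 21 in WT. Of the 4 tested genes of this list, 1 (Hsbp1) was lower at an unadjusted p under 0.05. The other cytosolic Hsp70 and Hsp110 genes gave 0 of 5 in either direction, with Hspa4l at 0.07 (SE 0.05), Hspa2 at 0.07 (SE 0.15), Hspa12a at -0.19 (SE 0.44) and Hspa12b at -0.54 (SE 0.35).

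Among 14 other J protein genes, 1 was lower at an unadjusted p under 0.05. Dnajb6, which suppresses aggregation of polyglutamine proteins, had 32.4 and 32.0 CPM in KO, against 37.4 and 36.4 CPM in WT (log2 change -0.20, SE 0.07, adjusted p = 0.526). Dnajc7, which bridges Hsp70 and Hsp90, was at -0.09 (SE 0.05), Dnajc21, which acts in ribosome assembly, at 0.12 (SE 0.07), and the weakly detected Dnaja4 at 0.56 (SE 0.35). Of the 9 Hsp70 co-chaperones, 1 was lower. This was the exchange factor gene Bag5, with 28.5 and 26.3 CPM in KO, against 31.0 and 31.6 CPM in WT (adjusted p = 0.562). Bag3, an HSF1 target that links Hsp70 to autophagy, had 2.82 and 3.03 CPM in KO, against 2.13 and 1.98 CPM in WT (log2 change 0.49, SE 0.22, adjusted p = 0.598). Bag2, which inhibits the ubiquitin ligase CHIP, had a log2 change of 0.36 (SE 0.17) and the exchange factor gene Hspbp1 one of -0.17 (SE 0.10).

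The 15 Hsp90 co-chaperones gave 0 in either direction at an unadjusted p under 0.05. Values were -0.10 (SE 0.05) for Cdc37, which brings kinases to Hsp90, 0.16 (SE 0.07) for its relative Cdc37l1, 0.13 (SE 0.06) for Cacybp and 0.06 (SE 0.05) for Chordc1. Without WT replicate 1, Cdc37 was at -0.04 and Cdc37l1 at 0.05, and without WT replicate 2 at -0.17 and 0.26. Of 9 small heat shock genes, 3 had 0 counts in all libraries (Hspb1, Hspb7 and Hspb8) and 2 were tested. Hspb11, which despite its name is a part of the intraflagellar transport complex, was lower at an unadjusted p under 0.05 (log2 change -0.19, SE 0.08, adjusted p = 0.573), and Hspb6 was at -0.15 (SE 0.15). In the list of the cytosolic chaperonin and prefoldin, 10 of 14 had negative values and 1 was lower at an unadjusted p under 0.05. Pfdn1, a subunit of prefoldin, which hands actin and tubulin to the chaperonin, had 19.8 and 19.1 CPM in KO, against 24.0 and 21.9 CPM in WT (log2 change -0.24, SE 0.09, adjusted p = 0.546). Pfdn6, Pfdn2 and Pfdn5 were at -0.14 (SE 0.07), -0.13 (SE 0.07) and -0.08 (SE 0.05).

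The 9 sensors and factors of the unfolded protein response gave 0 in either direction. Ern1, which encodes the IRE1 sensor, was at 0.11 (SE 0.07), Xbp1, whose mRNA IRE1 splices, at -0.08 (SE 0.06), Atf4 at 0.07 (SE 0.05) and Atf6b at -0.06 (SE 0.05). Of 26 other ER chaperones and folding enzymes, 1 was higher and 2 were lower at an unadjusted p under 0.05. Sec63, the J protein of the ER translocon, had 216 and 213 CPM in KO, against 200 and 196 CPM in WT (log2 change 0.12, SE 0.05, adjusted p = 0.569). The cyclophilin gene Ppib had 118 and 115 CPM in KO, against 131 and 123 CPM in WT (adjusted p = 0.584), and Cnpy2 had 32.2 and 32.7 CPM in KO, against 37.6 and 35.4 CPM in WT (adjusted p = 0.564). Ero1l, the oxidase of disulfide formation, was at 0.15 (SE 0.08). In ER-associated degradation 1 of 14 was lower, the selenoprotein gene Selenos, with 20.9 and 21.1 CPM in KO, against 23.5 and 24.6 CPM in WT (log2 change -0.20, SE 0.08, adjusted p = 0.564). Os9, Herpud1 and Edem1 were at -0.07 (SE 0.05), -0.08 (SE 0.06) and 0.06 (SE 0.05).

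**Figure D5:**
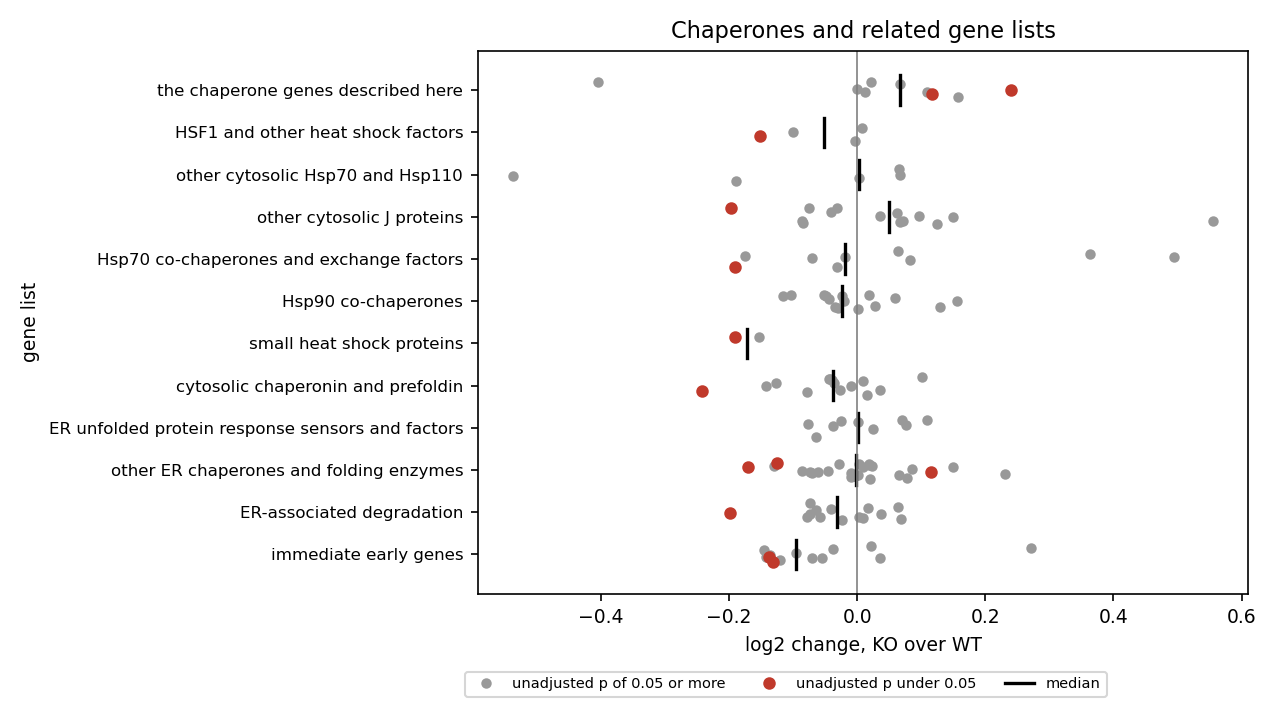
Log2 change (KO over WT) of each tested gene in the chaperone lists and in the immediate early genes; black bars are list medians and red points have an unadjusted p under 0.05. Medians lie between -0.17 and 0.07.

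Immediate early genes, which like heat shock genes are known to respond quickly to handling of cells, were read beside the members; their part in the members' values was not tested. The 15 genes summed to 1497 and 1441 CPM in KO and to 1515 and 1607 CPM in WT. At an unadjusted p under 0.05, 2 of 13 tested were lower and 0 higher, against 4.01% lower and 4.4% higher of all genes. Egr1 had 122 and 123 CPM in KO, against 134 CPM in each WT library (log2 change -0.13, SE 0.05, adjusted p = 0.547), and Jund 246 and 241 CPM in KO, against 259 and 276 CPM in WT (adjusted p = 0.547). Junb and Btg2 were at -0.14 (SE 0.09) and -0.10 (SE 0.06). Junb was at -0.01 without KO replicate 2 and at -0.29 without KO replicate 1, and Btg2 ran from -0.15 to -0.05 over the fits with 1 library omitted. Fos, singled out after its values were seen, had 2.73 and 3.15 CPM in KO, against 2.35 and 2.503 CPM in WT.

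Over the 4 libraries, the genes whose log2 CPM profile lay nearest to that of Hspa8 among 7338 genes of at least 20 CPM were Il17rb (distance 0.027 on the log2 scale), Tnfrsf1b (0.040), Mllt6 (0.066), Prdm15 (0.069) and Megf9 (0.074). Il17rb, a cytokine receptor gene, had 72.7 and 82.0 CPM in KO and 65.4 and 63.3 CPM in WT. For Hspa5 the nearest were Sept11 (0.012), Atp8b2 (0.014), Ube2q1 (0.014), Stradb (0.014) and Rnf220 (0.014). With 4 libraries and 7338 genes, profiles this near are a description of the libraries only.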

How the data were processed

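The submitters' processing notes name Trimmomatic 0.33, STAR 2.5.2, HTSeq, edgeR and the mm10 build; they give no HTSeq mode, strand setting or annotation release. The deposited files hold raw counts per gene, as HTSeq writes them. In the table of the authors' comparison, the CPM values equal counts over the library total, and the log2 fold changes, the likelihood ratio score, the p-values and the adjusted p-values are the authors', per the file headers. HTSeq's summary lines were left out of library sizes. The line for no feature held 20.6% and 19.9% in KO and 17.2% and 18.6% in WT of the entries not in the multi-aligned line, which itself held 23.2% to 24.7% of all aligned entries.

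KO was compared with WT by the quasi-likelihood F test of edgeR 4.0.16 under R 4.3.3. Settings were filterByExpr with a minimum count of 10, TMM, a robust fit and a Benjamini-Hochberg adjusted p under 0.05 over all genes. Tried on simulated data, the test missed many of the smallest changes put in and some of each larger size. Changes of members, small ones above all, may therefore go uncalled. Log2 changes are KO over WT. Alternatives were DESeq2 1.42.0, edgeR's likelihood ratio test, other scalings and filters, the replicate block and omission of each library. RPKM used merged GENCODE M21 exons, since the authors' gene length column exceeds the gene span for some members. Members and lists were chosen with earlier results of these data known. The naming rule took all members, Uqcrfs1 and up to 4 genes of smallest p from each pathway list. From each cell type list it took the 2 of highest level and up to 2 of smallest p. The 5 genes of nearest profile to Hspa8 and to Hspa5 were also taken. Not all of the cell type genes it allows are printed, and Cd4 was printed outside the rule as a gene that defines DP cells. In the lists of mature T, B, stromal and erythroid cells, 1 tested gene had an unadjusted p under 0.05, against 8.4% of all genes. It was Col1a1 (log2 change 1.01, SE 0.40). The last 3 summed to 29.6 and 28.1 (B), 145 and 145 (stromal) and 0.323 and 0.347 CPM (erythroid) in KO, against 29.0 and 25.6, 152 and 157, and 0.122 and 0.198 CPM in WT; Krt8, Col1a2, Pdgfra, Hba-a1 and Hba-a2 had 0 counts.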

Additional observations from a re-analysis of the deposited data

How the results depend on the processing

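Hspa8 had a positive log2 change in each alternative run (0.15 to 0.33) and passed the threshold in the unfiltered fit only (0.24, adjusted p = 0.00151), where 1 member was called; the cause was not tested. The 2 members at an unadjusted p under 0.05 became 1 with DESeq2, the likelihood ratio test or the replicate block, and 0 to 4 with 1 library omitted; in all such fits but the unfiltered one, 0 members were called. Over all genes 3 calls became 24 with DESeq2, 101 with the likelihood ratio test, 191 without a filter, 27 with the replicate block and 41 to 365 with 1 library omitted (365 without WT replicate 2), in fits that assume the lone mouse of a group varies like the others. Of the other pathway genes, the 1 higher became 0 with DESeq2, the likelihood ratio test and the replicate block, 2 unfiltered and 0 to 6 with 1 library omitted; the 8 lower became 0 with DESeq2 and 0 to 17 with 1 library omitted. None was called at an adjusted p under 0.05 in any alternative. Hsp90b1 changed sign with library totals only (0.0013) and with the replicate block (0.0006), its main value being near 0.

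Over the fits with 1 library omitted, the median of the tested members ran from -0.0161 (without KO replicate 2) to 0.0967. The medians of the lists ran from -0.1186 to 0.0533 (heat shock factors), -0.0275 to 0.0439 (other Hsp70; 0.0641 with the 1 CPM filter, which leaves fewer genes), 0.0013 to 0.0591 (J proteins), -0.0747 to 0.0315 (Hsp70 co-chaperones), -0.0617 to 0.0158 (Hsp90 co-chaperones), -0.0768 to 0.0108 (chaperonin and prefoldin), -0.0287 to 0.0315 (unfolded protein response), -0.0325 to 0.0045 (ER folding enzymes), -0.0439 to -0.0149 (ER-associated degradation) and -0.1208 to -0.0348 (immediate early genes). Of 51 named genes, 23 had values within 1.5 times the full one in each of these fits, 17 had the same sign but moved further, and the sign turned for 11: Hspa1b (-1.1109 to 0.9277), Hsph1 (-0.0516 to 0.3386), Hsp90ab1 (-0.0266 to 0.1510), Hspa5 (-0.0306 to 0.0511), Hsp90b1 (-0.0575 to 0.0504), Hsf1 (-0.0439 to 0.0333), Hsf2 (-0.0867 to 0.0941), Hsf4 (-0.2939 to 0.0984), Hspa2 (-0.0107 to 0.1348), Hspa12a (-0.4574 to 0.1260) and Hspb6 (-0.3103 to 0.0177).

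The replicate numbers are shared by the groups, but the sources used here do not say what a number shares, and deviations of same-numbered mice correlated at 0.067 across genes. Hspa1a and Hspa1b had 4 to 21 counts per library, and reads that align to both are not among them.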

Other observations

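Ratios between family members, in RPKM and so per exon length, are given here as values with no test. Hsp90ab1 exceeded Hsp90aa1 7.08-fold and 7.41-fold in KO replicates 1 and 2 and 7.64-fold and 7.30-fold in WT replicates 1 and 2. Multi-aligned reads are not counted, and Hsp90ab1 shares 3.44% of its 50-base stretches with other genes, against 47.5% for Hsp90aa1; the part of this in the ratio was not tested. In the ER, Hsp90b1 exceeded Hspa5 1.89-fold and 1.79-fold in KO and 1.90-fold and 1.80-fold in WT. The ratio of the cytosolic Hsp70 gene Hspa8 to the ER Hsp70 gene Hspa5 was 3.77 and 4.04 in KO and 3.35 and 3.32 in WT, with no overlap between groups; it was singled out after its values were seen and was not tested.

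Besides Gm15459 and Gm12346, given above, the following genes share sequence with members and had few counts. Multi-aligned reads are not among these counts. Gm5844, which shares sequence with Hsp90aa1, had 6 and 4 counts in KO and 4 in each WT library, Gm15542, which shares sequence with Dnaja1, had 27 and 33 counts in KO and 35 and 23 in WT, and Hspa1l, the third Hsp70 gene beside Hspa1a and Hspa1b, had 5 and 3 counts in KO and 5 and 0 in WT. The 10 members together held 0.284% and 0.313% of scaled counts in KO and 0.287% and 0.270% in WT.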
